A study of Homo sapiens with 372 samples.

Results

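The mRNAs of the cytosolic ribosomal proteins were followed in single A2780 cells, an established human ovarian cancer cell line. The members were the listed genes named RPL or RPS and a number (with or without A or X), together with RPLP0, RPLP1, RPLP2 and RPSA. There were 77 such genes among the 9664 listed, 46 of the large (60S) and 31 of the small (40S) subunit, and all 77 passed the detection limit (a value above 0 in over 30% of cells in some condition), as did 9655 genes in all. The paper describes a cut-off of the same kind ahead of its own analyses. Passing the limit was therefore largely fixed in advance for every listed gene and says nothing particular about the members. The untreated control gave 46 cells. Paclitaxel, which stabilizes microtubules, was given at 5 nM for 16 h (56 cells) or 48 h (53 cells). Celecoxib, an inhibitor of cyclooxygenase 2, was given at 75 µM for 2 h (63 cells) or 16 h (61 cells), and both drugs together at these doses for 16 h (59 cells). These times follow the condition names and the extraction notes, while the treatment note gives 48 h for all. The labels name no replicate culture or capture run. The sample titles hold the condition name, a code shared by all conditions and a running cell number, so each condition was counted as 1 sample. The effect of a condition and that of its culture or capture cannot be told apart. The index blocks below are runs of 96 consecutive sample numbers, formed here, and whether they were a batch is not known. Of the 6 conditions, 4 lay in a single block. Every SD below is a spread over cells, and no p-value was computed.

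The cytosolic ribosome is built from rRNA and one copy of most of its proteins, so the cell makes these proteins in closely matched amounts. Their mRNAs are among the most abundant of a dividing cell. Most of them start with a 5′ terminal oligopyrimidine (TOP) tract, a C followed by a run of pyrimidines, through which mTOR and LARP1 set their translation and stability. In tumour cells the demand for ribosomes follows growth signals such as MYC, and ribosomal proteins that are not built into ribosomes, RPL5 and RPL11 above all, can bind MDM2 and stabilize p53.

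The level was expressed in 2 ways. The deposited E-value is log2(N/10 + 1), where N is the TPM of a gene relative to the highest spike-in RNA of the same cell, so it carries any change in the RNA content of the cell. At the same total, every cell was rescaled to an equal sum of N and the E-value computed again, so that only changes relative to the other genes are left. TPM is a value per transcript length, and levels of different genes are compared on it. A difference of mean E-values past 1.5-fold (0.58 on the log2 scale) was counted as up or down. All differences from control share the same 46 control cells. Fewer molecules of a member per cell and a larger share of spike-in in the library give the same E-value.

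The starts of the genes are shown because the TOP tract is the feature that defines this group of mRNAs. RefSeq promoters on GRCh38.p14 matched 62 of the 77 members. In 46 of the 62 (74.2%) the base at a listed start was a C followed by at least 4 pyrimidines, against 585 of 7575 tested genes with a listed start (7.72%). When the run was allowed to begin within 5 bases of the start, 53 of 62 members had one, against 29.3% of all. The 30 bases around the start (15 before it, then 15 from it on) are printed for members with large differences below and for the most abundant ones, with the pyrimidine run that begins with C within 5 bases of the start in capitals.

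RPL41: cggaacttcgCCTTTCTCTCggccttagcg
RPL36A: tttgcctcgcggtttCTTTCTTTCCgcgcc
RPS19: ggaaaccccgtcgttCCCTTTCCCCTggct
RPL39: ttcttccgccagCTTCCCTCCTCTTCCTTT
RPL11: cggaagctccgCTTTCTCTTCCTgctctcc
RPS21: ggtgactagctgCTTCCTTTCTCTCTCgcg
RPL38: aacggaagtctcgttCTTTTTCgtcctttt
RPL3: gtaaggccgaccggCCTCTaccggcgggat
RPS26: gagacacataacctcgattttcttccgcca
RPS15: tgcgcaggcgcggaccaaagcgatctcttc

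RPL39 and RPS21 carried long runs, while RPL3 had a run of 5 bases. RPS26 and RPS15 had no run that met the definition at the listed start. On GRCh38.p14 the windows were RPL41 at chr12:56116618-56116647 (plus strand), RPL36A at chrX:101390996-101391025 (plus strand), RPS19 at chr19:41860240-41860269 (plus strand), RPL39 at chrX:119791616-119791645 (minus strand), RPL11 at chr1:23691791-23691820 (plus strand), RPS21 at chr20:62387088-62387117 (plus strand), RPL38 at chr17:74203663-74203692 (plus strand), RPL3 at chr22:39319609-39319638 (minus strand), RPS26 at chr12:56041903-56041932 (plus strand), RPS15 at chr19:1438381-1438410 (plus strand). All sequences are printed on the strand of the gene. Among motifs searched on both strands of the 300 bases around the start, TATAAA was in 8.06% of the members with a start and 7.54% of all genes, GGGCGG in 58.1% and 78.3%, CCGGAAG in 35.5% and 25.3%, and AAGATGG in 12.9% and 10.7%. The 46 members with the tract at the start and the 16 without it had median differences of 0.31 and 0.29 after 16 h paclitaxel, of 0.14 and −0.02 after 48 h, of 0.24 and 0.22 after 2 h celecoxib, of −0.26 and −0.31 after 16 h celecoxib and of −0.04 and −0.13 in the combination (all at the same total).

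The members were spread over 21 chromosomes, with 12 genes on chromosome 19. Of the 77 genes, 28 held annotated snoRNAs (60 in all) within their bounds in GENCODE version 44, small RNAs that guide the modification of rRNA. Their median difference was 0.38 after 16 h paclitaxel, 0.26 for the 49 without (same total). The annotation names 1587 pseudogenes after the members, up to 133 for RPL21, and none of them was a row of the table. Reads that match both a member and its copies were divided by the authors' estimation, so the level of a single member is uncertain to that degree.

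Depth and cell identity were checked first. The number of genes detected had a median between 6126 and 6630 per condition (lowest cell 4746, highest 8499), while reads per cell are unknown. Of 7 markers examined for the line, only KRT18, an epithelial keratin, and VIM, an intermediate filament gene of mesenchymal cells, had a row. VIM was detected in between 62.5 and 86.8% and KRT18 in between 23.9 and 36.5% of the cells of each condition. The other epithelial markers examined (KRT8, KRT19, EPCAM, CDH1 and PAX8) had no row. These markers therefore do not bear out an epithelial identity here, and the name of the line comes from the source. The blood, endothelial and stromal markers examined (PTPRC, CD68, PECAM1, COL1A1, DCN and HBB) had no row. A gene present in only a small part of the cells would have been cut beforehand. The missing rows therefore cannot exclude a minority of other cells. The control included 2 cells that stood apart, in which the members held 5.06 and 5.21% of the total against a lowest value of 8.43% in the other 44 control cells. Their totals were 2.13 and 1.36 below the control median on the log2 scale. The members' counts and medians against control are therefore also given without them.

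In control cells, mean E-values of the members ranged from 4.21 to 9.26 with a median of 7.56. The highest were RPL41 (9.26 ± 0.76, SD over 46 cells), the smallest protein of the ribosome, RPS15 (9.03), RPS18 (8.93), RPL15 (8.83), RPS2 (8.83) and RPL8 (8.78). The lowest were RPL22 (4.21 ± 0.75), RPS9 (4.85), RPL28 (5.09), RPL14 (6.09), RPS20 (6.26) and RPS12 (6.27). RPL22, an RNA-binding protein that ribosomes can do without, was the least abundant member in every condition but 16 h paclitaxel, where RPS9 was. The mean level of RPL41 was 33.9 times that of RPL22 on the linear scale. The 6 highest lay closer together than the SD of RPL41 over cells, and RPL14, RPS20 and RPS12 closer together than that of RPL22. The order given is thus one of means only. RPL41 made up 3.66% of the sum over the members, and the 24 most abundant genes were needed to reach 50% of it. Among the genes listed, 34 of the 100 and 59 of the 200 most abundant genes were members.

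**Figure D1:**
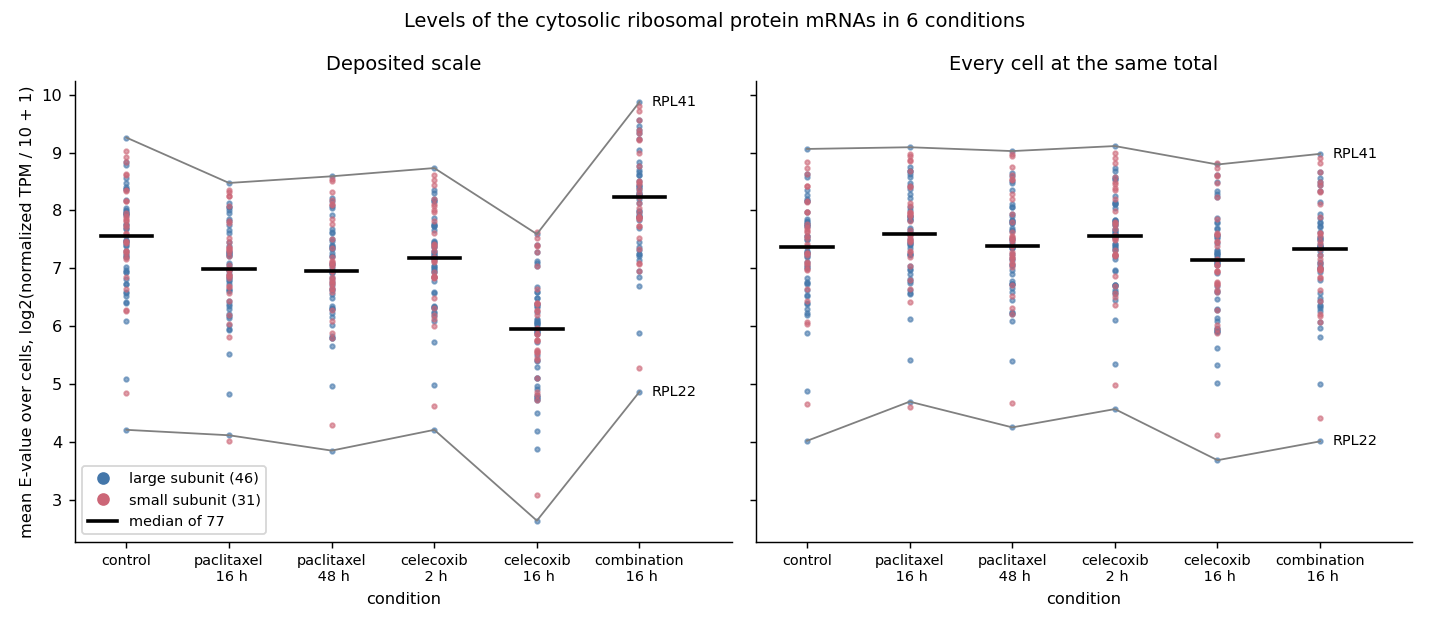
Mean E-value of each of the 77 members over the cells of each condition, on the deposited scale (left) and with every cell at the same total (right). Blue points are large subunit members, red points small subunit members, black bars medians. RPL41 and RPL22 are joined by lines. On the deposited scale the whole group is lowest after 16 h celecoxib and highest in the combination, while at the same total the medians lie close together.

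Celecoxib for 16 h gave the lowest levels on the deposited scale. All 77 members were down past 1.5-fold and 0 were up, against 43.9% of all genes down and 0.383% up. The median difference was −1.65 (all genes −0.48), between −2.37 for RPS21 and −0.92 for RPL36A. Weakly expressed genes are compressed by the pseudocount, so values are also given for the 1037 genes, members included, with a mean E-value at or above that of the lowest member, RPL22, which lies well below the members' median. Of these 94.2% were down, with a median of −1.53. Without the 2 control cells that stood apart the members' median was −1.76, with 77 down (all genes 45.8%). The sum over the members was 3.17-fold lower than in control cells by the medians over cells, and the sum over all other genes 2.69-fold lower. RPL41, for example, had a median E-value of 9.45 in control cells (from 6.26 to 10.2) and 7.58 after 16 h celecoxib (6.00 to 8.74). All 61 treated cells lay below the control median.

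After 16 h paclitaxel, 27 of 77 members were down past 1.5-fold and 0 were up (all genes 37.3% down, 0.0932% up). All 77 were below control, with a median difference of −0.51. Of the 1037 genes, 78.1% were down, with a median of −0.87. The members' sum was 1.62-fold lower and that of the other genes 2.02-fold lower. After 48 h paclitaxel 33 members were down and 0 up (all genes 26.6% down, 0.922% up), with a median of −0.55 against −0.76 for the 1037 genes, of which 67.8% were down. After 2 h celecoxib 13 members were down and 0 up (all genes 25.7% down, 1.12% up), with a median of −0.36 against −0.66 for the 1037 genes, 56.7% of which were down. Without the 2 control cells, 50, 54 and 29 members were down in these 3 treatments, with medians of −0.63, −0.67 and −0.48, while 40.1, 29.5 and 28.5% of all genes and 84.3, 74.5 and 64.4% of the 1037 were down. Within paclitaxel 48 h, 51 members were down in the 22 cells of one index block and 23 in the 31 cells of the other. The share of all genes down was not computed by block, so these counts cannot be read as particular to the members. The members' medians in these blocks were −0.69 and −0.43, and those of all genes, −0.35 and −0.21, differed in the same direction.

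With both drugs for 16 h the members were above control. Of 77, 45 were up past 1.5-fold and 0 were down (all genes 30.4% up, 1.76% down). Without the 2 control cells 27 were up, with a median of 0.50 (all genes 27.8% up, the 1037 genes 43.2% up with a median of 0.51). The median difference was 0.64, between −0.01 for RPS26 and 1.33 for RPL3. For the 1037 genes the median was 0.60 and 51.2% were up. The index blocks of 34 and 25 cells gave medians of 0.76 and 0.50 for the members and of 0.36 and 0.30 for all genes.

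**Figure D2:**
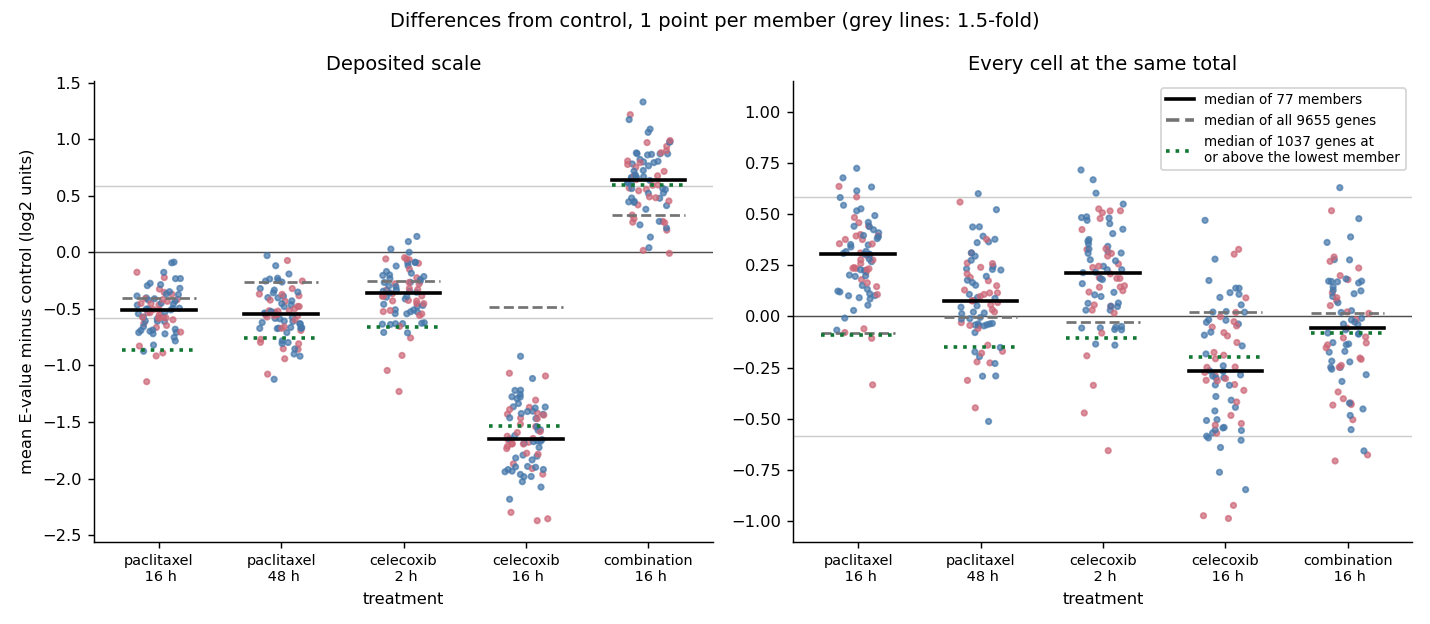
Mean E-value of each member in a treatment minus that in control cells, on the deposited scale (left) and at the same total (right; another vertical range). Blue points are large and red points small subunit members. Black bars are medians of the 77 members, grey dashed bars medians of all 9655 tested genes, and green dotted bars medians of the 1037 genes at or above the lowest member in mean E-value. All 77 members lie below −0.58 only after 16 h celecoxib on the deposited scale.

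The design also allows comparisons between treated conditions that do not use the control cells. Adding celecoxib to paclitaxel at 16 h went with a median member difference of 1.17, and all 77 members were up past 1.5-fold (all genes 62.5%). Adding paclitaxel to celecoxib at 16 h went with a median of 2.24, again with 77 of 77 up (all genes 66%). Celecoxib at 16 h against 2 h had all 77 down (all genes 19.4%) with a median of −1.27. Celecoxib thus went with a median difference of −1.65 in the absence and of 1.17 in the presence of paclitaxel on the deposited scale, the first of these being against control. The difference of these differences had a median of 2.74 over the members and of 1.33 over all genes. It was above 0 for all 77 members and for 99.0% of all genes, and at the same total its median was −0.14 over the members and 0.08 over all genes. On the deposited scale RPL36A had the smallest (2.18). All genes include weakly expressed ones, which the pseudocount compresses, and genes at or above the lowest member were not read separately here. How far this widens the gap between members and all genes was not tested. Sums of N carry no pseudocount. On the log2 scale the members' median sum differed from control by −0.70 (paclitaxel 16 h), −1.66 (celecoxib 16 h) and 0.46 (combination). The other genes' median sum differed by −1.01, −1.43 and 0.54.

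At the same total the members differed by much less. The members' share of the total in a cell summarizes this. Its median was 11.6% in control cells (quartiles 10.7 and 13.8), 14.3% at 16 h and 13.0% after 48 h paclitaxel, 13.8% at 2 h and 10.5% after 16 h celecoxib, and 11.4% in the combination. The SD over cells was between 1.53 and 2.48 percentage points. Above the control median were 52 of 56 and 34 of 53 cells with paclitaxel (16 and 48 h), 49 of 63 and 23 of 61 with celecoxib (2 and 16 h) and 25 of 59 in the combination. The conditions overlapped: 10 of 56 cells after 16 h paclitaxel lay above the highest control cell, and 1 of 61 after 16 h celecoxib below the lowest. Without the 2 cells the control median was 11.7%. Leaving out the 5 members of highest mean N, the median was 9.96% in control, 12.4% after 16 h paclitaxel and 9.60% in the combination.

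**Figure D3:**
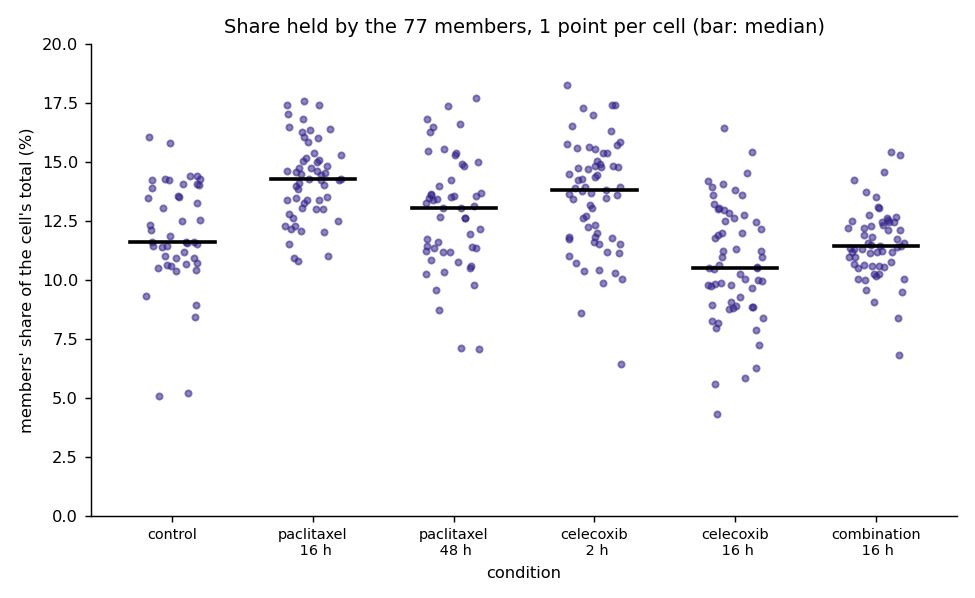
Share of each cell's total that the 77 members hold, in percent, for 1 point per cell and condition; bars are medians. The medians are highest after 16 h paclitaxel (14.3%) and lowest after 16 h celecoxib (10.5%), and the 2 lowest control cells are at 5.06 and 5.21%.

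After 16 h paclitaxel, with every cell at the same total, 71 of 77 members were above control. Of them 5 were up past 1.5-fold and 0 down (all genes 1.62% up, 11.7% down), with a median of 0.30 against −0.09 for the 1037 genes. The highest were RPL36A (0.72), RPL22 (0.68) and RPS3A (0.64), a protein of the 40S subunit. RPL23 (0.63) and RPL7A (0.61) made up the 5, RPL23 being named after its values were seen. RPS26 (−0.11) and RPS27 (−0.08) were among the 6 members below control. Without the 2 control cells the median was 0.25 and 2 members were up, RPL22 (0.67) and RPL36A (0.63), against 1.72% of all genes.

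After 2 h celecoxib 64 members were above control. Here 3 were up (RPL36A 0.72, RPL39 0.67, RPL3 0.60) and 1 was down, with all genes at 3.78% up and 9.53% down. RPS26 (−0.47) and RPS15 (−0.34) were below control within the limit. The median was 0.21 (0.17 without the 2 control cells) against −0.10 for the 1037 genes. After 48 h paclitaxel 1 member was up (RPL3, 0.60) and 0 were down (all genes 4.03% up, 6.96% down), with a median of 0.08 that became 0.023 without the 2 control cells. RPS19 (0.56), a 40S protein mutated in Diamond-Blackfan anaemia, and RPL28 (0.52) followed, and RPL38 (−0.51) and RPS26 (−0.31) were among the lowest. From 16 to 48 h paclitaxel 2 members were down, RPL26 (−0.75, named after its values were seen) and RPL38 (−0.66), against 1.52% of all genes, and the median was −0.21.

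After 16 h celecoxib the sign was the opposite. In this condition 61 members were below control and 16 above, and 8 were down and 0 up (all genes 9.05% down, 8.31% up). The median was −0.27, −0.20 for the 1037 genes, of which 21.7% were down. The lowest were RPS21 (−0.99) and RPS26 (−0.97). RPL11 (−0.85), one of the members that bind MDM2, was also down past the limit, and RPL5, its partner in the 5S RNP, was at −0.50. RPL36A (0.47), RPS27 (0.33) and RPS19 (0.30) were above control. Without the 2 control cells 17 members were down and the median was −0.30, with 9.80% of all genes and 24.0% of the 1037 down. From 2 h to 16 h celecoxib 24 members were down (all genes 4.44%) with a median of −0.46. All genes include weakly expressed ones, and the share of the 1037 genes was not read for this comparison.

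In the combination 1 member was up (RPL3, 0.63) and 3 were down (all genes 7.05% up, 6.79% down), with a median of −0.06, or −0.12 without the 2 control cells. RPS25 (0.52) and RPL36A (0.48) followed RPL3. RPS26 (−0.71) and RPL38 (−0.66) were among those down. Against paclitaxel alone 14 members were down (all genes 1.95%), with a median of −0.34. Against celecoxib alone 6 were up (all genes 6.03%), with a median of 0.16.

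The place of some members among the others differed between conditions. Differences from control share the control cells, so a control level that is high or low by itself enters all 5. RPS26, a 40S protein at the mRNA exit, had same-total means of 7.71 ± 0.34 in control, 7.60 and 7.39 with paclitaxel, 7.23 and 6.73 with celecoxib and 7.00 in the combination. After 16 h celecoxib all 61 cells were below the control median, and 58 of 59 in the combination. RPL38, which affects the translation of particular mRNAs, had 7.76 ± 0.48 in control, 7.91 and 7.25 with paclitaxel, 7.62 and 7.25 with celecoxib and 7.10 in the combination. RPL38 was near control after 16 h paclitaxel (25 cells below and 31 above the control median) and low at 48 h (46 below and 7 above).

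RPL36A, a 60S protein near the tRNA exit site, was higher than control in all treatments at the same total. Its means were 6.62 ± 0.55 in control, 7.35 and 7.06 with paclitaxel, 7.34 and 7.09 with celecoxib and 7.10 in the combination. RPL36A exceeded the control median in 54 of 56, 43 of 53, 58 of 63, 45 of 61 and 51 of 59 cells. GENCODE names 52 pseudogenes and a readthrough gene with HNRNPH2 after it. RPL3, which lies next to the peptidyl transferase centre, had 7.24 ± 0.44 in control, 7.66 and 7.84 with paclitaxel, 7.84 and 7.26 with celecoxib and 7.87 in the combination. RPL3 was above the control median in 47 of 56 cells after 16 h paclitaxel and in 28 of 61 after 16 h celecoxib. RPS21 was below its control median in 58 of 61 cells after 16 h celecoxib, in 33 of 63 after 2 h and in 48 of 59 in the combination. Its mean was 7.62 ± 0.74 in control and 6.63 ± 0.77 after 16 h celecoxib. RPL11 went from 6.77 ± 0.40 in control to 5.92 ± 0.99 in the same cells, 53 of 61 of which were below its control median.

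**Figure D4:**
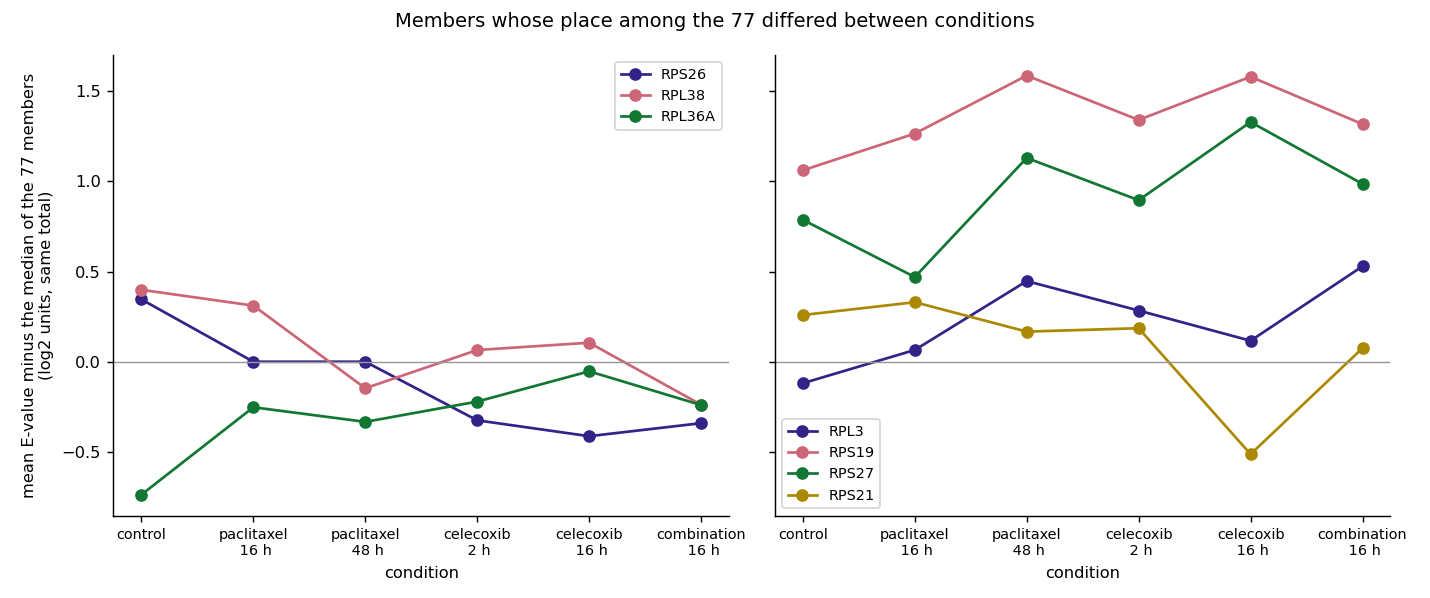
Mean E-value at the same total of 7 members, minus the median of all 77 members in the same condition, for the 6 conditions. RPS26 lies above the members' median in control and below it after 2 and 16 h celecoxib and in the combination, while RPL36A lies lowest in control.

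Over the 77 members, 16 had their highest place relative to the members' median in control, 18 their lowest, and 43 in between. The order of levels was otherwise kept, with Spearman's rho between 0.919 and 0.983 for pairs of conditions over the 77 genes (a description over genes that share libraries). The range of a member's relative level over the 6 conditions had a median of 0.39. GC content of the transcript had Spearman's rho of −0.41 with the difference after 16 h paclitaxel and 0.03 with that after 16 h celecoxib.

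The members were also read by role. The stalk proteins, which recruit translation factors, were at 7.47 (RPLP0), 7.25 (RPLP1) and 7.22 (RPLP2) in control on the deposited scale. After 16 h celecoxib they were 1.12, 1.29 and 1.92 lower on that scale, and at the same total they differed by 0.28, 0.09 and −0.54. RPS6, the 40S substrate of S6 kinase, was 0.42 lower after 16 h paclitaxel, 1.37 lower after 16 h celecoxib and 0.75 higher in the combination. RPS3, at the mRNA entry, had differences of −0.57, −1.96 and 0.64 in the same conditions (same total 0.24, −0.57 and −0.06). RPL10, the last 60S protein to join, had −0.88, −1.98 and 0.41 (same total −0.07, −0.60 and −0.28). RPSA had −0.42, −1.74 and 0.48 (same total 0.39, −0.36 and −0.21). RPS27A, made as a fusion with ubiquitin, had −0.41, −1.44 and 0.56 (same total 0.40, −0.05 and −0.14). On the deposited scale large and small subunit members had medians of −0.50 and −0.53 after 16 h paclitaxel, −1.65 and −1.65 after 16 h celecoxib and 0.66 and 0.59 in the combination. At the same total these medians were 0.31 and 0.28, −0.28 and −0.25, and −0.03 and −0.11. The ratio of the small to the large subunit sum had a median between 0.741 and 0.769 in the 6 conditions.

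Members varied together from cell to cell, as described by Pearson's r of each pair of members over the cells of a condition at the same total (the cells of a condition are 1 sample). The median over the 2926 pairs was 0.56 in control (0.38 without the 2 cells), 0.19 and 0.31 after 16 and 48 h paclitaxel, 0.37 and 0.42 after 2 and 16 h celecoxib and 0.23 in the combination. For the mitochondrial ribosomal proteins (77 genes) the same medians lay between 0.02 and 0.08, for initiation factors between 0.01 and 0.05, but these genes have lower E-values, and the part of level in this difference was not tested. RPS18 (mean r with the mean of the other members 0.77), RPS6 (0.71) and RPL8 (0.70) followed the rest most closely, and RPS9 (0.30), RPL22 (0.31) and RPL14 (0.37), which are among the 4 lowest in control level, the least. Over control cells at the same total, RPL7A (SD 1.11), RPS12 (1.04) and RPL28 (0.95) varied most, and RPL30 (0.30), RPL15 (0.31) and RPL31 (0.32) least.

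**Figure D5:**
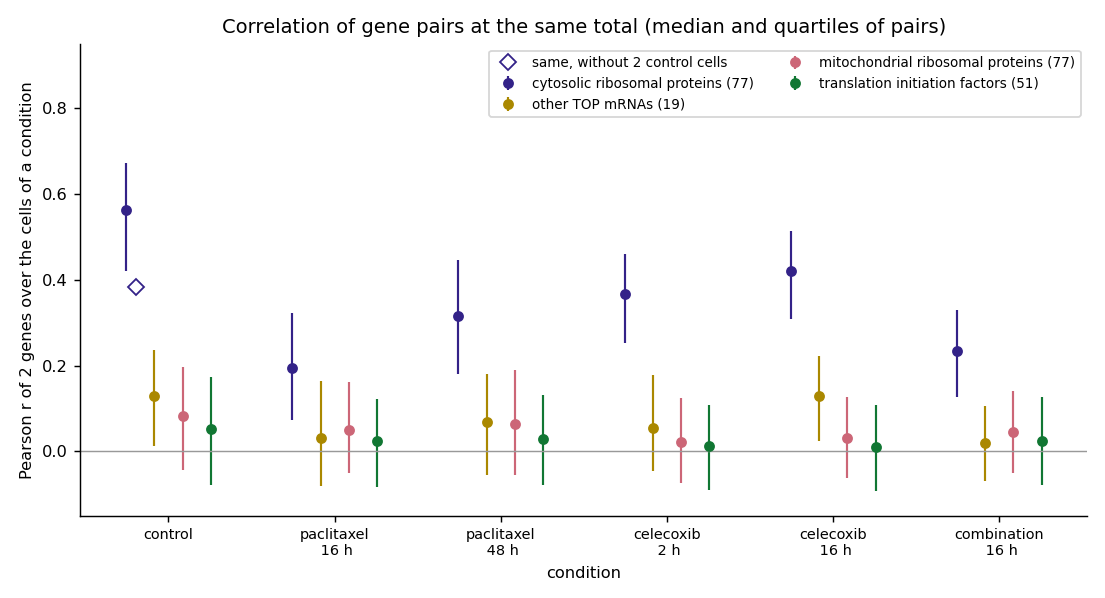
Pearson's r of pairs of genes over the cells of a condition at the same total, as the median (point) and quartiles (bar) over pairs, for the cytosolic ribosomal proteins, other TOP mRNAs, mitochondrial ribosomal proteins and initiation factors. The members' median is above those of the other lists in all 6 conditions, and the open diamond is the control without its 2 cells of lowest member share (0.38).

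Of the ribosomal proteins whose names do not follow the pattern, FAU and RACK1 were below control at the same total in all 5 treatments. FAU, made as a fusion that is cut to RPS30, had 7.53 in control and 6.15 after 16 h celecoxib, a difference of −1.38. In the same cells RACK1, a scaffold on the 40S head, had −0.41. Among 6 listed paralogues, RPS27L went from 5.82 in control to 6.59 after 48 h paclitaxel on the deposited scale, while RPS27 was 0.25 lower. RPS27L was at 5.62 after 16 h paclitaxel, 5.84 and 5.03 after 2 and 16 h celecoxib and 6.93 in the combination. CDKN1A, a p53 target as RPS27L is, had 0.95 in control, 1.24 and 2.81 with paclitaxel, 1.00 and 1.95 with celecoxib and 1.09 in the combination. RPL22L1 had 5.42 in control and 2.87 after 16 h celecoxib on the deposited scale, and a difference of −1.41 at the same total.

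Other mRNAs with TOP tracts were read from a list of 19, all of them listed (12 of the 13 with a RefSeq start had the tract at it). Their median differences at the same total were 0.08, 0.15, 0.13, −0.47 and 0.11, in the order paclitaxel 16 and 48 h, celecoxib 2 and 16 h and combination. After 16 h celecoxib 7 of 19 were down and 1 up, beside 9.05% of all genes down and 8.31% up, and 21.7% of the 1037 genes down. NPM1, a nucleolar chaperone, was 1.03 lower, and EEF1A1, the elongation factor that brings tRNA to the ribosome, was 0.61 higher. EEF2 was above control in all 5 treatments, by 0.56 to 1.34.

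Ribosome assembly factors and nucleolar proteins had medians below control. At the same total those of the 26 genes were −0.48 and −0.49 with paclitaxel, −0.43 and −0.33 with celecoxib and −0.51 in the combination, and 8, 12, 8, 6 and 8 of them were down (1 was up, after 16 h celecoxib). The shares of all genes down were 11.7, 6.96, 9.53, 9.05 and 6.79%. Of the 1037 genes, 13.7, 13.3, 16.0, 21.7 and 13.2% were down, though some of the 26, such as RRS1 (0.43 in control, deposited scale), lie below their level. Above control were 2, 3, 2, 9 and 3 of the 26. LTV1, which leaves the 40S precursor late, went from 4.10 in control to 2.74 after 16 h paclitaxel, and EBNA1BP2 from 4.81 to 3.55 after 16 h celecoxib. The mitochondrial ribosomal proteins had medians between −0.33 and −0.10, and the 51 initiation factors between −0.26 and −0.08. The 19 listed genes of mTOR and MYC control had medians of −0.33 and −0.11 with paclitaxel, −0.10 and 0.01 with celecoxib and −0.14 in the combination. Of them 4, 1, 3, 1 and 1 were down and 0, 0, 1, 2 and 0 up. The shares of all genes up were 1.62, 4.03, 3.78, 8.31 and 7.05%. MYC had −0.75 and −0.15 with paclitaxel, −0.68 and −0.31 with celecoxib and −0.16 in the combination. Its SD over cells was between 1.19 and 1.71. EIF4EBP1, which represses cap-dependent translation, had −0.49 and −0.35, 1.07 and 1.60, and 0.41 in the same order (same total).

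The genes outside the group whose mean level over the 6 conditions was most like the members' mean at the same total were SSBP3 (Pearson's r 0.99), NAP1L1 (0.99), which is also on the TOP list, SRSF11 (0.98), NDUFA4 (0.98) and C19orf79 (0.98). With only 6 points, r is a description of likeness.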

How the data were processed

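Single A2780 cells were captured on the Fluidigm C1 system and sequenced with Smart-seq2. After trimming (Trim Galore), the authors obtained TPM from RSEM 1.3.0, run with Bowtie2 against GENCODE version 28 (hg38) plus 3 spike-in RNAs, divided the TPM of a cell by that of its highest spike-in RNA, and removed cells in which housekeeping genes were poorly detected (338 of 372 cells have values). Whether that housekeeping list holds members is not given in the sources used here. The deposited E-value is log2 of N/10 + 1 and covers 9664 genes. A text row with the authors' predicted state of each cell was not used.

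From these values N was recovered and each cell rescaled to the same total. Members and lists were chosen with earlier results of these data known. With 1 sample per condition no test was made. Genes named are the 6 highest and 6 lowest in control, the 3 largest rises and falls per treatment at the same total, the 3 highest and lowest in correlation and in SD, members known by role, and the list genes; some of these are not reported here. The 1037 genes at or above the lowest member and the control without its 2 cells of lowest share were added after seeing the data. The steps were tested on simulated data. Alternatives were the same total over all or over other genes, linear means, a pseudocount of 1, medians, a 2-fold limit, cells with at least 5500 genes, 1 index block alone, the 1 well noted as 0 or debris left out, other totals for the share and other detection limits. Positions come from GENCODE version 44 and starts from RefSeq. The software was Python 3.11.15 with pandas 2.3.3, numpy 2.4.6, matplotlib 3.10.9 and scipy 1.17.1.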

Additional observations from a re-analysis of the deposited data

Results flagged for a closer look

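The direction of the members under celecoxib for 16 h differed with the presence of paclitaxel on the deposited scale. The median member difference was −1.65 without paclitaxel (celecoxib against control) and 1.17 with it (combination against paclitaxel alone). All 77 members were below 0 in the first and above 0 in the second. So were most genes, with 90.1% of all genes below 0 in the first and 98.0% above 0 in the second. The difference was not tested, since each condition was 1 sample. At the same total both medians were below 0.

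At the same total the members also lay on opposite sides of control at the 2 times of celecoxib. The median difference was 0.21 at 2 h and −0.27 at 16 h, and both share the control cells. This difference was not tested.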

How the results depend on the processing

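The scaling decided the direction. With the same total over all genes, the median member difference was 0.30 (paclitaxel 16 h), 0.077 (paclitaxel 48 h), 0.21 (celecoxib 2 h), −0.27 (celecoxib 16 h) and −0.057 (combination). With the same total over the other genes it was 0.34, 0.091, 0.24, −0.29 and −0.063. The sign thus turned in all treatments but celecoxib 16 h, since rescaling removes a shift shared by all genes. No other alternative run turned the sign of a median member difference on either scale. For the counts below the cause of a change was not tested. Shares of all genes were computed only for the control without its 2 cells of lowest share (given above) and for other detection limits. The other counts therefore cannot be set against all genes. On the deposited scale, the members down numbered 50, 54 and 29 for paclitaxel 16 h, 48 h and celecoxib 2 h without the 2 control cells of lowest share (chosen after seeing the data), and 1, 2 and 2 with a 2-fold limit. With medians over cells there were 55 down after 16 h paclitaxel and 29 after 2 h celecoxib, and index block 2 alone gave 51 after 48 h paclitaxel. The members up in the combination numbered 27 without those cells, 5 with a 2-fold limit and 28 with medians. At the same total, the members down after 16 h celecoxib numbered 17 without those cells, 13 in cells with at least 5500 genes, 4 with linear means and 0 with a 2-fold limit. A 2-fold limit left 0 members up or down in the other treatments at the same total. Those up after 16 h paclitaxel numbered 2 without the 2 control cells. After 48 h paclitaxel 2 were up in each index block, 2 down in block 2, and 0 up in cells with at least 5500 genes. The share was 16.9, 16.2 and 13.5% after 16 h paclitaxel, 2 h celecoxib and in the combination when the 50 most abundant other genes were left out of the total, and 12.4 and 9.60% for paclitaxel 16 h and the combination without the 5 most abundant members. No paired analysis was possible because each condition is 1 sample and replicate numbers are not shared. With 1 sample per condition and reads per cell unknown, neither the variation between cultures nor the counting error of a value is known.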
